A study of Mus musculus with 50 samples.

Results

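Clip2, Limk1, Stx1a, Fzd9, Vps37d, Eln, Hip1, Caln1, Auts2 and Galnt17 are genes of, or next to, the interval that is deleted in Williams syndrome, and they have neuronal, signalling or matrix roles. They were picked out as rows by gene symbol, from a list drawn up with earlier results of these data known, and all 10 were found among the 11708 genes of the RNA-seq count table. The table holds 18 libraries of whole brain from E13.5 mouse embryos of strain FVB/ANTJ, in 6 groups of 3. In the gtf2i set the groups are wt, gtf2i (1 mutant allele named) and gtf2i/gtf2i (2 mutant alleles named). In the ird1 set, for Gtf2ird1, they are a separate wt group, ird1 and ird1/ird1. The labels give genotype names only and do not describe what the alleles change, how they were made, or whether litters were shared, so p-values measure the spread between these embryos. Replicate numbers below are only names.

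Gtf2i and Gtf2ird1 encode related transcription factors and lie in the same interval. People with the typical deletion lack 1 copy of each gene in it, and loss of ELN, which encodes tropoelastin, is the known cause of the arterial narrowing of the syndrome. The other genes described here act in neurons or in signalling: CLIP2 binds microtubules, LIM kinase 1 phosphorylates cofilin and so slows actin turnover, syntaxin 1A is a plasma membrane SNARE of synaptic vesicle release, and Frizzled 9 is a Wnt receptor. Hip1, Caln1, Auts2 and Galnt17 lie outside the typical deletion, on its flanks.

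In the mouse, RefSeq places all 10 on chromosome 5 of the GRCm38.p6 build (mm10), within 3.67 Mb of Gtf2i when gene midpoints are compared. Clip2 (chr5:134489383-134553767), Limk1 (chr5:134656039-134689859), Eln (chr5:134702595-134747368), Stx1a (chr5:135023482-135051100), Vps37d (chr5:135072899-135078326), Fzd9 (chr5:135248938-135251047) and Hip1 (chr5:135406496-135545323) lie on one side of Gtf2i (chr5:134237832-134317678), beyond Gtf2ird1 (chr5:134357661-134456867). Auts2 (chr5:131437333-132543220), Galnt17 (chr5:130874343-131307522) and Caln1 (chr5:130369404-130846325) lie on the other side, with midpoints 2.29, 3.19 and 3.67 Mb away.

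Galnt17, Caln1 and Clip2 were the members that passed the test in a genotype comparison, so the promoter windows of these genes are shown, from 250 bases before to 50 bases after the start (RefSeq, GRCm38.p6, 5′ to 3′ on the strand of the gene). The windows are chr5:131307473-131307772 (minus strand), chr5:130369208-130369507 (plus strand) and chr5:134552385-134552684 (minus strand). The Clip2 window lies wholly within the gene span given above, so its start is not the outermost of the gene. Capitals mark matches, on either strand, to the letters CCAAT, which nuclear factor Y binds in many promoters. They also mark the letters GGGCGG, called a GC box, which the Sp1 family binds.
Galnt17: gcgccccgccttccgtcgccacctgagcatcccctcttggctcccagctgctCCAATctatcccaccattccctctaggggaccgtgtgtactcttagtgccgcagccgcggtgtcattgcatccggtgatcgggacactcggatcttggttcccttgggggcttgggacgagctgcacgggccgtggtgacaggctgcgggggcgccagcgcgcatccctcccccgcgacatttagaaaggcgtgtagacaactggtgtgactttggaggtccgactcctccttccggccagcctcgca
Caln1: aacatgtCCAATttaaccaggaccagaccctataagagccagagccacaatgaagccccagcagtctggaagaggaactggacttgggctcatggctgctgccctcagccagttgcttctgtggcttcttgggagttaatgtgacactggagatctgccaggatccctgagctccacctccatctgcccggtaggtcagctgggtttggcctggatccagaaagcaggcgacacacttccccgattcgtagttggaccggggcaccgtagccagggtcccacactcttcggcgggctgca
Clip2: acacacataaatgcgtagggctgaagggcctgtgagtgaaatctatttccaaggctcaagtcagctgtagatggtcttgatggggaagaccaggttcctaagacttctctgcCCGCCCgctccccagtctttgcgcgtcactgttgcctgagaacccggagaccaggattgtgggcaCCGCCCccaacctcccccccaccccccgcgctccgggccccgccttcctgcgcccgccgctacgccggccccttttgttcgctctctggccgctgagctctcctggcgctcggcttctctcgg
The Galnt17 window has 1 CCAAT match and 24 CpG dinucleotides, the Caln1 window 1 CCAAT match and 8 CpG, and the Clip2 window 2 GC box matches and 21 CpG. The median over all 32851 promoter windows in the table was 7 CpG.

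Windows were present for 8 of the 10 genes, all but Auts2 and Eln, 10 windows in all, since Limk1 and Hip1 have 2 each. The letters GGATTA, the core that the Gtf2ird1 protein is known to bind, were in 0 of these 10 windows and in 7.06% of all windows. TATAAA, the TATA box, was also in 0 of the 10, against 13.6% of all windows. CACGTG, an E-box of the kind the Gtf2i protein can bind, was in 1 of the 10, that of Fzd9, where its last base overlaps a GC box, against 7.15% of all windows. CCAAT was in 5 of the 10 against 37.4%, and GGGCGG in 7 of the 10 against 35.7%; in 1 Limk1 window the matches to these overlap. A match describes letters only, and no match says only that the letters are not in this window.

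In the wt brain the 10 genes spanned a wide range of levels. CPM values are counts relative to the library total, adjusted by TMM over all 18 libraries, and are divided by transcript length where genes are compared. Over the 6 wt libraries Clip2 was highest, at 71.2 ± 15.3 CPM per kb (SD, n = 6), followed by Limk1 at 59.3 ± 6.88 and Auts2 at 52.9 ± 2.41. Vps37d stood at 34.9 ± 6.17, Hip1 at 28.6 ± 1.30, Stx1a at 17.9 ± 1.91 and Fzd9 at 14.3 ± 1.76 CPM per kb. Galnt17 at 5.61 ± 0.769, Eln at 4.33 ± 1.39 and Caln1 at 0.812 ± 0.128 CPM per kb were lowest. The ranges of neighbours in this order overlapped, except between Auts2 and Vps37d, Hip1 and Stx1a, Fzd9 and Galnt17, and Eln and Caln1. Among 11700 genes with a length, Clip2 ranked 774 and Caln1 11654. In gtf2i/gtf2i brains 4 members stood at another rank: Hip1 was above Vps37d, and Eln above Galnt17. In gtf2i brains 4 did too, with Hip1 again above Vps37d, and Auts2 above Limk1.

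The genotype labels were checked on the mutated genes. Gtf2i stood at 598, 658 and 615 CPM in the wt libraries of its set, at 375, 363 and 365 in gtf2i and at 83.3, 82.2 and 81.8 in gtf2i/gtf2i. Gtf2ird1 rose in the embryos with 2 mutant alleles of either set. It stood at 97.9, 84.1 and 95.1 CPM in wt of the gtf2i set, at 126, 143 and 138 in gtf2i and at 286, 270 and 245 in gtf2i/gtf2i (log2 fold change against wt 1.52, edgeR adjusted p = 5.611e-07). In the ird1 set it stood at 90.5, 114 and 90.4 CPM in wt, at 149, 151 and 147 in ird1 and at 219, 223 and 227 in ird1/ird1 (1.18, edgeR adjusted p = 3.918e-05). The labels do not say what the ird1 allele does to the transcript, so this level separates the genotypes but does not check the loss. Library totals ranged from 3239117 to 7371483 counts, with the smallest in wt replicate 2 of the ird1 set.

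The first comparison asks how these genes differ in brains with 2 mutant Gtf2i alleles. In gtf2i/gtf2i against wt, 9 of the 10 members were lower, and Galnt17 passed the test (edgeR quasi-likelihood test, adjusted p under 0.05 over all genes). Caln1 and Galnt17, the farthest from Gtf2i, had the largest differences, to 49.0% and 56.3% of the wt mean, and Hip1 was the member that was higher. The called share was 1 of 10, and over all genes it was 0.940%. At an unadjusted p under 0.05 there were 5 lower and 1 higher, or 6 of 10, against 14.4% of all genes. For 6 of the 10 every gtf2i/gtf2i library was below every wt library, which held for 8.98% of all genes. The median log2 fold change was -0.27 over the members and 0.00 over all genes. In whole brain RNA, fewer cells of a type and less RNA per cell cannot be told apart.

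**Figure D1:**
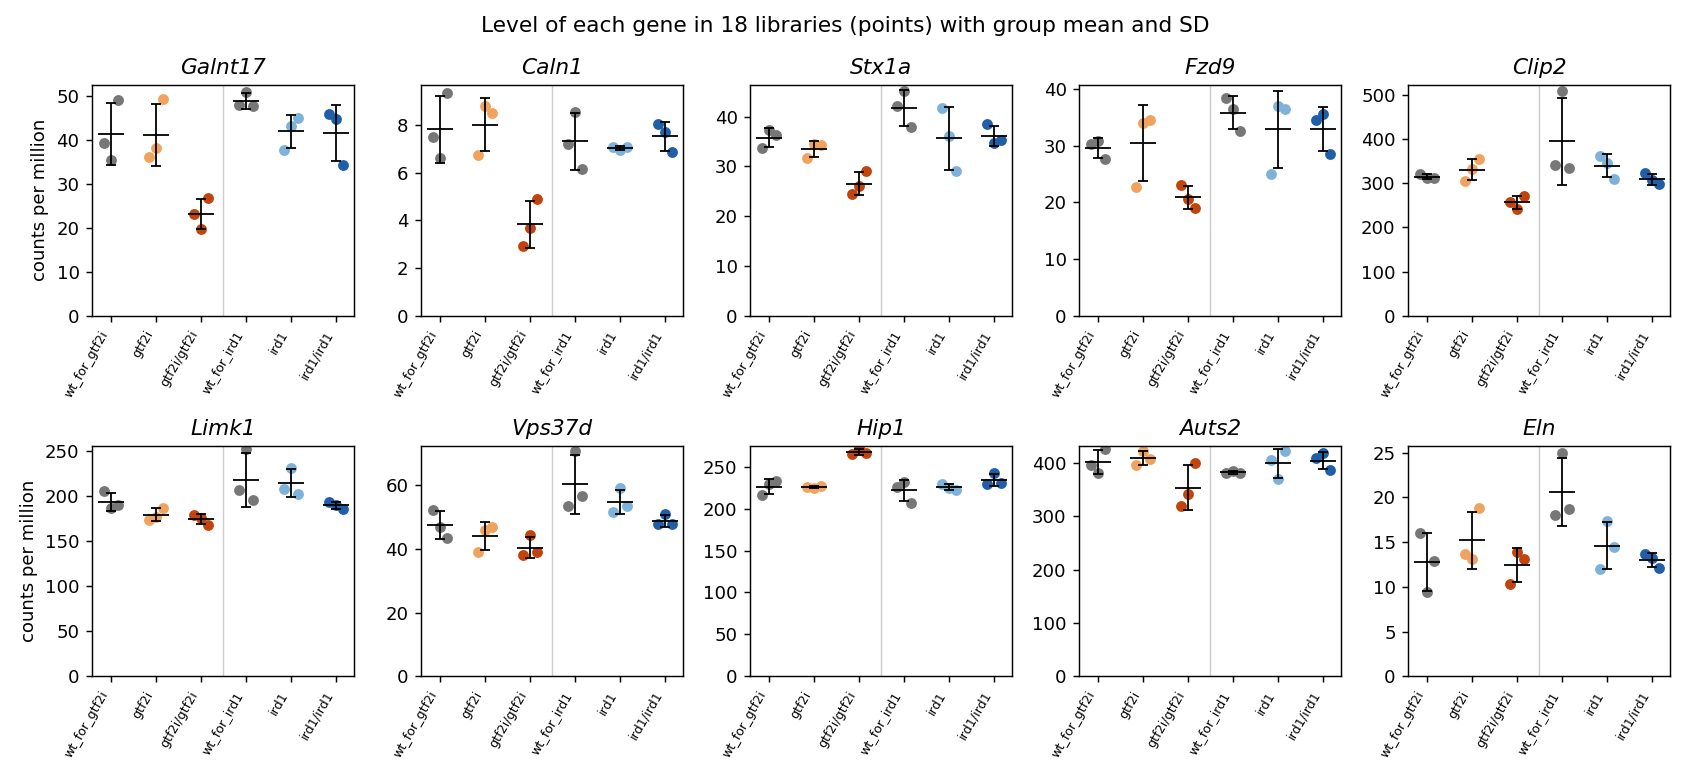
Level of each of the 10 genes in CPM (y axes from 0) in 18 libraries, 3 points per group, with the group mean (dash) and SD (bars). The gtf2i/gtf2i points of Galnt17, Caln1, Stx1a and Clip2 lie below all other points of the gtf2i set, and those of Hip1 lie above them.

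Galnt17 (ENSMUSG00000034040) encodes a member of the family of enzymes that start mucin-type O-glycosylation by adding N-acetylgalactosamine to proteins, and it is known for its expression in brain. It stood at 39.4, 35.5 and 49.1 CPM in the wt libraries, at 36.1, 38.2 and 49.3 in gtf2i, and at 23.2, 19.9 and 26.7 in gtf2i/gtf2i. The gtf2i/gtf2i libraries were thus all below the other 6, which overlapped one another. Galnt17 fell by 0.83 on the log2 scale against wt (SE 0.163, 95% confidence interval -1.18 to -0.48, edgeR adjusted p = 0.0287). With the number that opens each sample title as a block (replicate block), the log2 fold change was -0.82 and the edgeR adjusted p 0.00560. The call was lost without wt replicate 1, wt replicate 3, gtf2i replicate 2, or gtf2i/gtf2i replicate 1 or 2, and when the gtf2i libraries were left out of the fit, and the adjusted p ranged from 0.000671 with DESeq2 to 0.153 over all alternatives.

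Caln1 (ENSMUSG00000060371) encodes calneuron 1, a calcium-binding protein of the calmodulin superfamily that sits at the Golgi of neurons. Its counts were low, from 16 to 69 per library in the gtf2i set. In CPM it stood at 7.50, 6.61 and 9.36 in wt, at 6.73, 8.79 and 8.50 in gtf2i, and at 2.92, 3.70 and 4.88 in gtf2i/gtf2i. The gtf2i/gtf2i libraries were again all below the other 6. The log2 fold change against wt was -1.03 (SE 0.237, 95% confidence interval -1.54 to -0.52, edgeR adjusted p = 0.0576), which did not pass. With the replicate block it was -1.03 with an edgeR adjusted p of 0.0104, which did pass, and over all alternatives the adjusted p ranged from 0.00577 to 0.258.

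Stx1a encodes the syntaxin that forms the core release complex with SNAP-25 and synaptobrevin. Its levels were 33.7, 37.4 and 36.4 CPM in wt, 31.8, 34.6 and 34.3 in gtf2i, and 24.4, 26.1 and 29.0 in gtf2i/gtf2i. The last group lay below the others without overlap. The log2 fold change against wt was -0.44 (SE 0.112, edgeR adjusted p = 0.0725), and with the replicate block -0.44 (edgeR adjusted p = 0.0309, and 0.0178 to 0.275 over all alternatives), where it passed. Fzd9, the Wnt receptor, stood at 30.4, 30.8 and 27.7 CPM in wt, at 22.8, 34.1 and 34.6 in gtf2i, and at 23.0, 20.6 and 19.1 in gtf2i/gtf2i. Here 1 gtf2i library lay within the gtf2i/gtf2i range, while the wt and gtf2i/gtf2i libraries did not overlap. The difference from wt was -0.51 on the log2 scale (SE 0.158) and did not pass, with an edgeR adjusted p of 0.131. Among the alternatives Fzd9 passed only with the replicate block and a trend of transcript length removed together (edgeR adjusted p = 0.0472). In that fit 7.22% of all genes were called, and the highest edgeR adjusted p of Fzd9 over all alternatives was 0.341.

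Clip2 and Limk1 act on the cytoskeleton. Clip2 (ENSMUSG00000063146), whose product is a cytoplasmic linker of membranes to microtubules, stood at 322, 313 and 312 CPM in wt, at 306, 333 and 354 in gtf2i, and at 259, 241 and 271 in gtf2i/gtf2i. The gtf2i/gtf2i libraries were below the other 6 by a small margin, and the wt libraries were very close to one another. The log2 fold change against wt was -0.30 (SE 0.0806, edgeR adjusted p = 0.0838), and -0.30 with the replicate block (edgeR adjusted p = 0.0322, and 0.0165 to 0.327 over all alternatives), where it passed. Limk1 stood at 205, 186 and 190 CPM in wt and at 179, 176 and 168 in gtf2i/gtf2i, and its difference was -0.16 on the log2 scale (SE 0.0752), far from passing with an edgeR adjusted p of 0.362. The gtf2i libraries of Limk1, at 174, 177 and 187 CPM, overlapped both of the other groups.

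Hip1 and Vps37d act in membrane traffic. Hip1 encodes an endocytic adaptor that binds clathrin and actin and was first found as a partner of huntingtin. It stood at 216, 229 and 233 CPM in wt, at 225, 224 and 227 in gtf2i, and at 265, 272 and 266 in gtf2i/gtf2i. All 3 gtf2i/gtf2i libraries were above the other 6, and they lay within a narrow range. The log2 fold change against wt was 0.24 (SE 0.0693, 95% confidence interval 0.09 to 0.39, edgeR adjusted p = 0.109), so the difference did not pass. Hip1 passed in 2 alternatives: without gtf2i/gtf2i replicate 3, and with the replicate block and a trend of transcript length removed together. In these fits 9.90% and 7.22% of all genes were called. Over all alternatives the edgeR adjusted p of Hip1 ranged from 0.0218 to 0.332. Vps37d encodes a subunit of ESCRT-I, the complex that sorts ubiquitinated cargo into endosomes. Its levels were 52.4, 46.8 and 43.4 CPM in wt and 38.1, 44.3 and 38.9 in gtf2i/gtf2i, with 39.0, 46.1 and 46.9 in gtf2i, and the groups overlapped (log2 fold change -0.24, SE 0.115, edgeR adjusted p = 0.362).

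Auts2 encodes a nuclear protein of neurons that joins Polycomb complexes, and variants of the human gene are linked to neurodevelopmental disorders. It stood at 396, 382 and 427 CPM in wt and at 319, 342 and 400 in gtf2i/gtf2i, where the third library lay within the wt range, and at 397, 423 and 408 in gtf2i (log2 fold change -0.19, SE 0.0925, edgeR adjusted p = 0.377). Auts2 passed only without gtf2i/gtf2i replicate 3 (edgeR adjusted p = 0.0344), a fit that called 9.90% of all genes. Over all alternatives its log2 fold change ran from -0.28 to -0.12, and its highest edgeR adjusted p was 0.754. Eln, the matrix gene of the group, stood at 16.0, 9.45 and 12.9 CPM in wt and at 10.3, 13.9 and 13.1 in gtf2i/gtf2i, with 13.6, 13.1 and 18.9 in gtf2i. Its groups overlapped, the log2 fold change was -0.06 (SE 0.213), and the 95% confidence interval, -0.52 to 0.40, leaves changes of moderate size in either direction undetected.

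Embryos of the gtf2i set carry 3 title numbers, each with 1 embryo per genotype. Within all 3 numbers the gtf2i/gtf2i embryo was below the wt embryo for 8 members, all but Hip1 and Eln. This was not counted over all genes, and the libraries are those already tested above, so the count adds no independent evidence. For Caln1 the log2 ratios were -1.02 (11619), -1.18 (12301) and -0.94 (12419), and for Galnt17 they were -0.99, -0.61 and -0.88. Hip1 was higher in the gtf2i/gtf2i embryo within each number, by 0.33, 0.21 and 0.19 on the log2 scale. With the replicate block 4 members passed (Clip2, Stx1a, Caln1 and Galnt17), where 624 of all genes, or 5.33%, passed too. DESeq2 called 3 members (Clip2, Caln1 and Galnt17) and 2.65% of all genes. Without gtf2i/gtf2i replicate 3 edgeR called 6 members and 9.90% of all genes, so the calls rose across the table as well. For the 6 lower and 1 higher members without overlap, the exact two-sided permutation p was 0.1, the smallest that 3 against 3 allows.

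**Figure D2:**
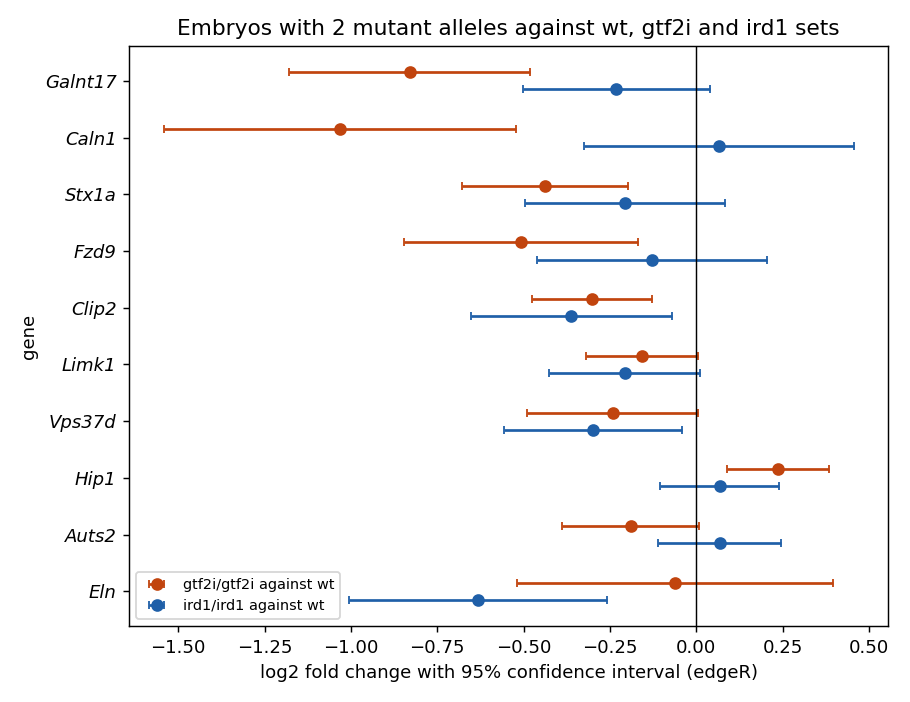
Log2 fold change of each gene (x axis) with its 95% confidence interval from edgeR, for gtf2i/gtf2i against wt (orange) and ird1/ird1 against wt (blue). In the gtf2i set the intervals of Galnt17, Caln1, Stx1a, Fzd9 and Clip2 lie below 0 and that of Hip1 above it, and in the ird1 set those of Clip2, Vps37d and Eln lie below 0.

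Against gtf2i, which carries 1 mutant allele, the same 9 members were lower in gtf2i/gtf2i, and 3 passed. These were Galnt17 (41.2 ± 7.11 to 23.3 ± 3.42 CPM, SD, n = 3; log2 fold change -0.82, edgeR adjusted p = 0.0177), Caln1 (8.01 ± 1.11 to 3.83 ± 0.988 CPM; -1.05, edgeR adjusted p = 0.0308) and Clip2 (331 ± 24.1 to 257 ± 15.2 CPM; -0.37, edgeR adjusted p = 0.0266). The called share of all genes was 3.12%. At an unadjusted p under 0.05 there were 7 of 10, against 16.5% of all genes, and 4 members were lower without overlap, against 10.0% of all genes. None of the 3 calls held without gtf2i/gtf2i replicate 1 or 2, or without gtf2i replicate 2 or 3, when 0 members were called and the calls over all genes went from 365 to between 67 and 134. In the fit of all 18 libraries Clip2 was not called and Hip1 was, with 4.05% of all genes called. The replicate block called Fzd9 and Hip1 beside these 3, with 7.62% of all genes. DESeq2 called Fzd9 beside the 3, with 4.30% of all genes. The comparison shares its gtf2i/gtf2i libraries with the one against wt, so the pair are not independent.

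With 1 mutant Gtf2i allele no member passed. In gtf2i against wt, edgeR called 0 of 10, DESeq2 0, and 0 had an unadjusted p under 0.05, beside 0.00854% and 1.60% of all genes. Of the members, 5 were higher and 5 lower, and the median log2 fold change was 0.01. For Galnt17 the log2 fold change was -0.01 (95% confidence interval -0.34 to 0.32) and for Caln1 it was 0.02 (-0.43 to 0.46). For Clip2 it was 0.07 (-0.10 to 0.24). For each of Galnt17, Caln1 and Clip2 the difference seen in gtf2i/gtf2i against wt lies outside its own interval here. In that comparison Caln1 and Clip2 did not pass, and both comparisons share the wt libraries.

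In the ird1 set no member passed in any comparison. For ird1/ird1 against wt, edgeR called 0 of 10 members and 0.00854% of all genes. DESeq2 called 0 of the 4 members to which it gave an adjusted p (Clip2, Limk1, Hip1 and Auts2) and gave none to the other 6. At an unadjusted p under 0.05 there were 3, namely Eln, Clip2 and Vps37d, all lower, against 16.1% of all genes. For 5 members all ird1/ird1 libraries were below all wt libraries, against 11.8% of all genes. Eln had the largest difference, at 18.1, 25.0 and 18.7 CPM in wt, 12.1, 17.4 and 14.5 in ird1, and 13.7, 13.3 and 12.1 in ird1/ird1. The wt libraries of Eln lay above all others of the set, and the ird1/ird1 difference was -0.63 on the log2 scale (SE 0.176, 95% confidence interval -1.01 to -0.26), which did not pass (edgeR adjusted p = 0.296).

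The sizes of these differences depended on wt replicate 2, which also had the smallest sum of counts. Clip2 stood at 342, 510 and 335 CPM in the wt libraries and at 323, 307 and 299 in ird1/ird1, so replicate 2 was far above every other library. Vps37d at 53.5, 70.8 and 56.8 CPM and Limk1 at 207, 252 and 196 CPM were also highest in wt replicate 2. Without that library the share of all genes at an unadjusted p under 0.05 went from 16.1% to 7.49%, and among the members Eln alone was left, at -0.50 on the log2 scale (edgeR adjusted p = 0.653, the highest of its alternatives, from 0.184). Leaving out an ird1/ird1 library also lowered the counts, to 2 members and 8.40% of all genes without replicate 1, 2 and 10.2% without replicate 2, and 1 and 10.9% without replicate 3. Without wt replicate 2 the log2 fold change of Clip2 went from -0.36 to -0.14 and that of Vps37d from -0.30 to -0.18, while without any other single library Clip2 stood between -0.46 and -0.34 and Vps37d between -0.37 and -0.28. Within title number 11610, which does not hold that library, the ird1/ird1 mean differed from wt by -0.11 for Clip2 and -0.45 for Eln on the log2 scale, and within 11902, which does, by -0.77 and -1.04.

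Galnt17 and Caln1, the members with the largest differences in the gtf2i set, did not pass here either. Galnt17 stood at 48.0, 51.0 and 47.7 CPM in wt and at 46.0, 44.7 and 34.3 in ird1/ird1, just below wt without overlap (log2 fold change -0.23, 95% confidence interval -0.50 to 0.04). Caln1 stood at 7.23, 8.56 and 6.18 CPM in wt and at 8.03, 7.70 and 6.87 in ird1/ird1, which overlapped (log2 fold change 0.07, -0.32 to 0.46). The ird1 libraries stood at 37.8, 43.2 and 45.1 CPM for Galnt17 and at 7.07, 6.94 and 7.09 for Caln1.

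The remaining members showed small differences in the ird1 set. Stx1a stood at 42.2, 45.1 and 37.9 CPM in wt, at 41.7, 36.1 and 29.1 in ird1 and at 38.5, 34.8 and 35.4 in ird1/ird1. Fzd9 stood at 38.4, 36.5 and 32.6 CPM in wt, at 25.1, 37.1 and 36.6 in ird1 and at 34.6, 35.7 and 28.5 in ird1/ird1. For these genes wt and ird1/ird1 overlapped, with log2 fold changes of -0.21 and -0.13. Hip1, which was higher in gtf2i/gtf2i, stood at 226, 232 and 207 CPM in wt and at 229, 242 and 230 in ird1/ird1, which overlapped (0.07). Auts2 stood at 382, 386 and 381 CPM in wt and at 410, 418 and 386 in ird1/ird1, all above wt by a small margin (0.07, 95% confidence interval -0.11 to 0.25). Limk1 stood at 207, 252 and 196 CPM in wt, at 208, 232 and 202 in ird1 and at 193, 191 and 186 in ird1/ird1. The ird1/ird1 libraries of Limk1 were all below wt (log2 fold change -0.21, SE 0.103, edgeR adjusted p = 0.318). In ird1 against wt edgeR called 0 members and DESeq2 0, and 1, Eln, had an unadjusted p under 0.05 (log2 fold change -0.46, edgeR adjusted p = 0.997), beside 0% and 3.02% of all genes; without wt replicate 2 there were 0 members and 2.43% of all genes at an unadjusted p under 0.05. In ird1/ird1 against ird1 there were 0 calls by edgeR, 0 by DESeq2 and 0 at an unadjusted p under 0.05, beside 0% and 4.66% of all genes.

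The difference between the effects of gtf2i/gtf2i and ird1/ird1, each against its own wt, was tested in 1 fit of all 18 libraries. EdgeR and DESeq2 called 0 members, against 0.171% of all genes by edgeR, and 3 had an unadjusted p under 0.05, against 13.0% of all genes. These were Caln1 (log2 difference -1.10, SE 0.285, edgeR adjusted p = 0.127), Galnt17 (-0.60, SE 0.211, edgeR adjusted p = 0.265) and Auts2 (-0.26, SE 0.118, edgeR adjusted p = 0.356). Caln1 was called with the replicate block (with 0.709% of all genes) and without gtf2i/gtf2i replicate 3 (with 6.18%), with an edgeR adjusted p from 0.0158 to 0.479 over all alternatives. For the others the 2 effects were not shown to differ; for Clip2 the log2 difference was 0.05, with a 95% confidence interval of -0.29 to 0.40.

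The 2 wt groups were also set against each other. EdgeR called 0 members and 0% of genes, and 3 members (Clip2, Vps37d and Eln) had an unadjusted p under 0.05, lower in the wt of the gtf2i set, against 32.7% of all genes. DESeq2 called 1 of the 9 members with an adjusted p (all but Caln1) and 11.6% of all genes. That member was Eln, which stood at 12.8 ± 3.28 CPM in the wt of the gtf2i set and 20.6 ± 3.83 in that of the ird1 set (SD, n = 3). Eln in wt of the ird1 set was thus above all mutants of its own set and above the wt of the other set. The count rose to 3 when wt replicate 1 of the ird1 set was left out, to 2 without wt replicate 1 of the gtf2i set and to 1 without gtf2i/gtf2i replicate 3. In these fits 8.81%, 17.7% and 11.5% of all genes were called, so the members' share is read against a background of that size.

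The position of the 10 genes was then set beside their differences. Within 5 Mb of Gtf2i, 97 further genes were tested besides the 10 and the mutated pair. In gtf2i/gtf2i against wt, 49 of these were higher and 48 lower, and their median difference was 0.00 on the log2 scale, beside -0.27 for the members. EdgeR called 0 of them, with 3 higher and 9 lower at an unadjusted p under 0.05, or 12 of 97 against 14.4% of all genes. Against gtf2i, 2 of the 97, Fam20c and Orai2, were called lower, with 3 higher and 11 lower at an unadjusted p under 0.05 (3.12% and 16.5% of all genes). In ird1/ird1 against wt, 71 of the 97 were lower, with a median of -0.15, beside -0.21 for the members. Over all genes 50.5% were lower, with a median of -0.004. At an unadjusted p under 0.05, 2 of the 97 were higher and 17 lower, against 16.1% of all genes. Of 18 other listed genes of the Williams region that were tested, edgeR called Gtf2i and Gtf2ird1 and no other in gtf2i/gtf2i against wt, with a median of 0.04.

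**Figure D3:**
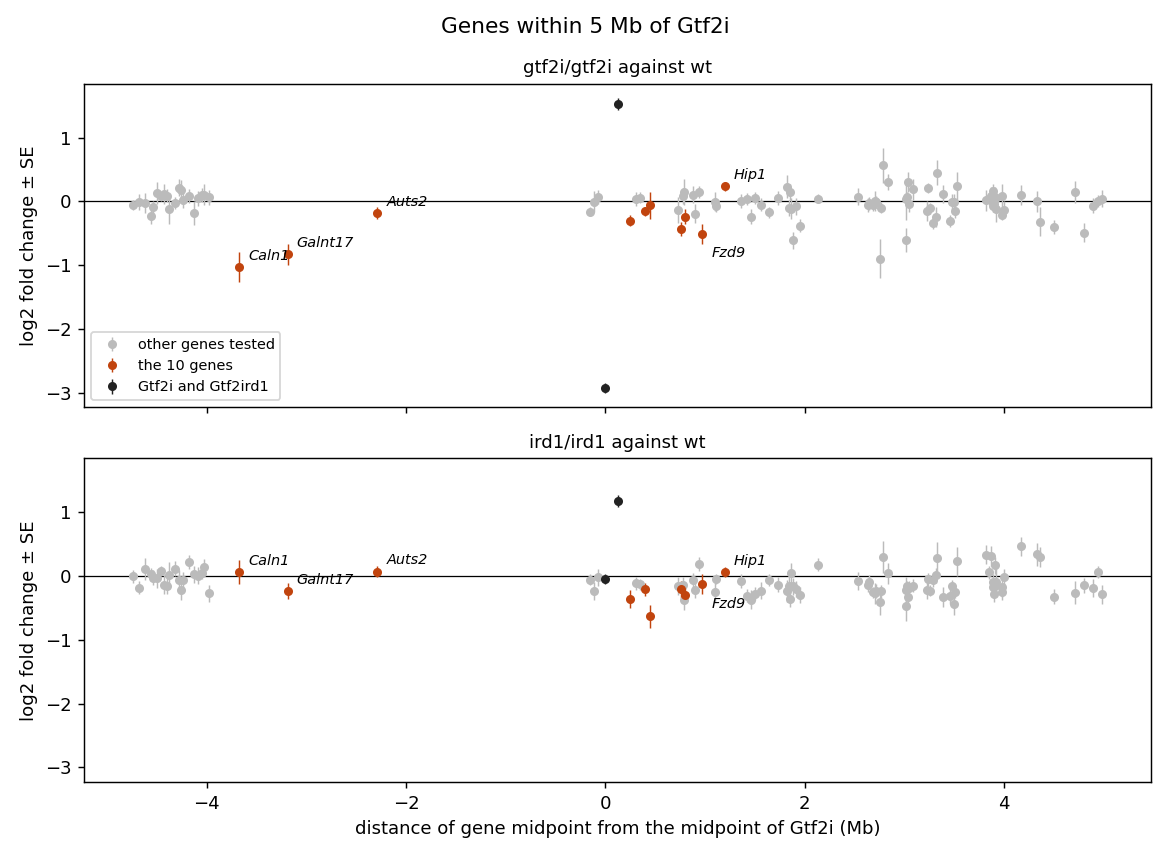
Log2 fold change with its SE (y axis) of each tested gene within 5 Mb of Gtf2i, against the distance of gene midpoints in Mb (x axis), for gtf2i/gtf2i (top) and ird1/ird1 (bottom) against wt. Orange points are the 10 genes, black points Gtf2i and Gtf2ird1, and grey points the 97 others; Caln1 and Galnt17 are 2 of the lowest points of the upper panel.

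Genes that work with each member were described from lists. In gtf2i/gtf2i against wt, 0.940% of all genes were called, 14.4% had an unadjusted p under 0.05 and 49.6% were lower, and against gtf2i 3.12% were called; the counts of each list are read against these shares. The list for Caln1 held calcium sensors with calcium buffers, calmodulins, kinases and calcineurin subunits, and had the most calls of the partner lists. Of 24 listed, 21 were in the table, all 21 were lower in gtf2i/gtf2i against wt, and 3 passed the edgeR test. The list's median difference was -0.36 on the log2 scale. Camk2b, a subunit of calcium/calmodulin-dependent kinase II, fell from 73.0 ± 9.14 to 32.8 ± 12.3 CPM (SD, n = 3; log2 fold change -1.14, edgeR adjusted p = 0.0179). Hpca, hippocalcin, fell from 14.9 ± 3.64 to 7.32 ± 0.987 CPM (-1.05, edgeR adjusted p = 0.0449). Cabp1, a relative of calmodulin, fell from 18.6 ± 1.78 to 10.3 ± 1.18 CPM (-0.85, edgeR adjusted p = 0.0414). Against gtf2i, Calb2, a calcium buffer, and Camk4, a kinase, were called as well, 5 in all. In ird1/ird1 against wt 0 of the 21 were called, with a median of -0.04.

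The 27 SNARE and vesicle release genes listed with Stx1a were all in the table, and 20 were lower in gtf2i/gtf2i against wt, with a median of -0.20. None was called against wt (edgeR 0, with 9 lower and 1 higher at an unadjusted p under 0.05, against 14.4% of all genes). Unc13a, which primes vesicles for release, was called against gtf2i (158 ± 17.8 to 116 ± 17.9 CPM, SD, n = 3; log2 fold change -0.45, edgeR adjusted p = 0.0497). Of the 22 clathrin and endocytosis genes listed with Hip1, 19 were lower against wt, opposite to Hip1 itself, and 0 were called by edgeR, with 9 lower at an unadjusted p under 0.05 (14.4% of all genes). Against gtf2i, Sh3gl2, an endophilin (-0.80, edgeR adjusted p = 0.0244), and Hap1, a huntingtin partner (-0.34, edgeR adjusted p = 0.0382), were called.

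Of 37 Frizzled and Wnt genes in the table, listed with Fzd9, 28 were higher in gtf2i/gtf2i against wt, with a median of 0.08. Fzd10, another Frizzled receptor, rose from 90.1 ± 8.40 to 139 ± 6.71 CPM (SD, n = 3; log2 fold change 0.62, edgeR adjusted p = 0.0104), while Fzd9 itself was lower. Lgr4, an R-spondin receptor, was called against gtf2i (0.59, edgeR adjusted p = 0.0159). Of 16 elastic fibre genes listed with Eln, 10 were higher and 0 were called against wt by edgeR, with 5 higher and 2 lower at an unadjusted p under 0.05 (14.4% of all genes). Against gtf2i, Ltbp3 (-0.58, edgeR adjusted p = 0.0231) and Ltbp1 (-0.59, edgeR adjusted p = 0.0385), which bind latent TGF-beta, were called.

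The lists for the remaining members gave 0 calls by edgeR in gtf2i/gtf2i against wt. These held 18 microtubule plus-end genes (Clip2; 4 at an unadjusted p under 0.05), 22 of the LIM kinase and cofilin pathway (Limk1; 3), 14 of ESCRT-I and its neighbours (Vps37d; 0), 22 Auts2 partners (0) and 14 GalNAc transferases and related enzymes (Galnt17; 1). Their medians ran from -0.07 to 0.01, against 0.00 over all genes. Among the most abundant per length, Dync1h1, the dynein heavy chain, differed by -0.08 on the log2 scale (SE 0.0896), Cfl1, cofilin 1, by -0.03 (SE 0.0981) and Galnt1 by 0.16 (SE 0.0994). No other enzyme of the list passed beside Galnt17.

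**Figure D4:**
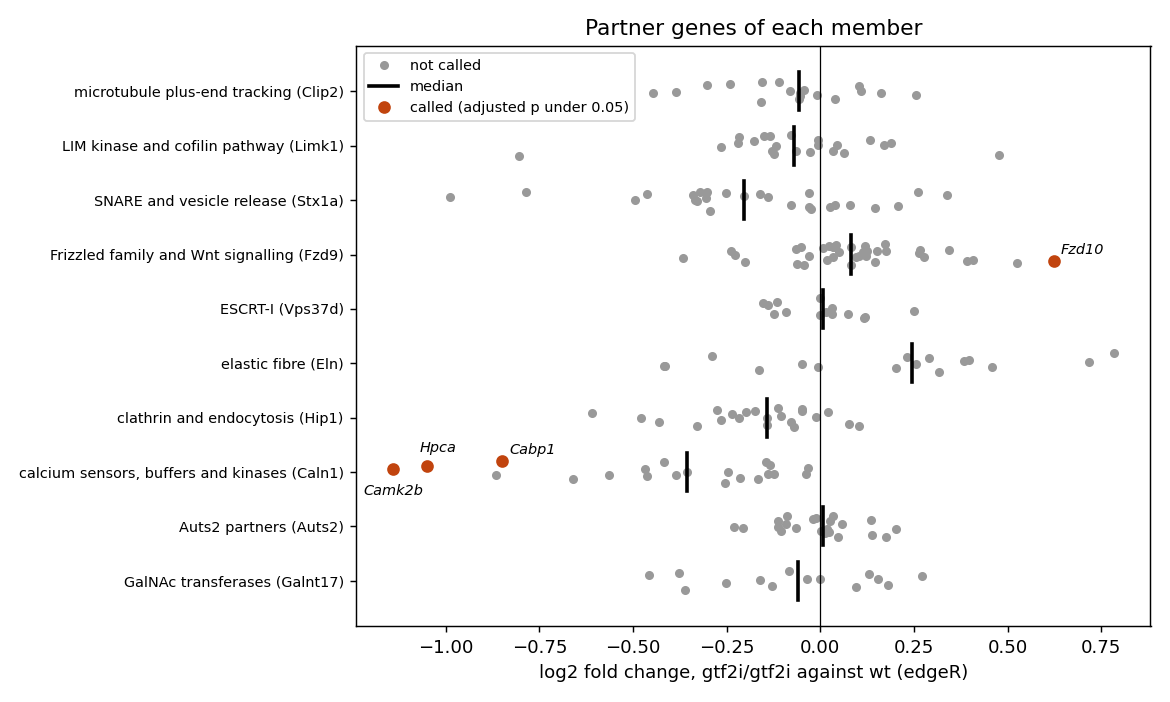
Log2 fold change in gtf2i/gtf2i against wt (x axis) of each partner gene, in 1 row per list with the member in brackets; orange points passed the edgeR test, grey points did not, and black bars are list medians. The row of calcium genes (Caln1) lies wholly below 0 and holds 3 of the 4 called points.

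Markers of brain regions and other cell types moved with the gtf2i/gtf2i group. All 20 telencephalon markers were in the table, 17 were lower against wt (49.6% of all genes) and edgeR called 6 lower (0.940% of all genes called), among them Tbr1, Neurod2 and Neurod6. Their summed level was 1766 to 1853 CPM in gtf2i/gtf2i and 2191 to 2413 in wt, without overlap. Of 20 neuron markers 16 were lower and 0 called, with sums of 6229 to 8259 CPM against 7603 to 8451. The 16 radial glia markers summed to 4063 to 4622 CPM, above the 3469 to 3842 in wt. Aldoc and Tnc of this list were called lower, against the direction of the sum, so the sum does not give the direction of each marker. All 9 red blood cell markers in the table, of 15 listed, were higher and Hbb-y and Slc4a1 rose, with sums of 5878 to 9252 CPM against 4162 to 5371; Klf1 and Gata1 were not in the table. Of 8 choroid plexus markers in the table, of 11 listed, the sum was 256 to 280 CPM against 320 to 411, and Ttr, the leading gene, fell (log2 fold change -1.63, edgeR adjusted p = 0.000531). The part of these shifts in the values of the 10 genes was not tested.

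In the other marker lists edgeR called 1 gene, Eomes, lower among 6 intermediate progenitor markers whose sums overlapped (756 to 795 CPM in gtf2i/gtf2i, 732 to 780 in wt). Midbrain and hindbrain markers (12 of 20 in the table, without Hoxa2 and Hoxb2) summed to 557 to 836 CPM against 590 to 612 in wt, and 10 were higher. Mesenchyme and meninges markers (17 of 20) summed to 1529 to 2328 CPM against 1439 to 1655. Smooth muscle and pericyte markers (11 of 15, without Tagln and Myh11) summed to 458 to 540 CPM against 395 to 473, and endothelial markers (14 of 15) to 521 to 601 against 492 to 581. All 6 microglia and macrophage markers present, of 12, were higher, with sums of 95.4 to 113 CPM against 68.8 to 102. Of 12 skeletal muscle and bone markers 2 were present, without Myod1, Myog and Acta1. In ird1/ird1 against wt no gene of any marker list was called, and the summed telencephalon level, 2183 to 2380 CPM, overlapped the wt range of 2341 to 2449.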

How the data were processed

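RNA from 18 whole brains was depleted of ribosomal RNA and sequenced, per the labels' protocols. The authors deposited 1 table of raw read counts per gene, already limited to 11708 genes; the submitters' processing notes name Trimmomatic, STAR, HTSeq and mm10, with no versions, and the strand setting is not given in the sources used here. The 32 other samples of the series (ChIP and input) were not analysed here. Counts were tested with edgeR 4.0.16 (TMM, filterByExpr, which removed 0 genes, quasi-likelihood F test, Benjamini-Hochberg over all genes, called under 0.05), with 9 libraries per fit within a set and 18 across sets; DESeq2 1.42.0 was an alternative, and the code was tested on simulated counts. Pairwise chi-square over degrees of freedom between replicates was 2.90 or more, so none was a repeat. Promoter windows and positions came from RefSeq.

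The members and all lists were chosen with earlier results of these data known. The text names all members and, from the partner lists, called genes and a few abundant ones; called marker genes are counted, and only some are named. Deviations from the group means had correlations of 0.377, 0.103 and 0.520 across genes between same-numbered gtf2i/gtf2i and wt embryos. Differently numbered pairs of these groups ran from -0.437 to 0.203, which takes in the lowest same-numbered value. Block values for that comparison are printed only for the 4 members that passed with the block. Limk1, Vps37d and Eln passed under no alternative there. The numbers come from the sample titles, which do not say what they mean.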

Additional observations from a re-analysis of the deposited data

How the results depend on the processing

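Each of the 80 member results (10 genes in 8 comparisons) was recomputed, giving 1562 values. The side of the threshold stayed in 1496, 7 had no adjusted p (DESeq2), 19 lost a call and 39 gained one, and 1, Hip1 between the wt groups, turned to -0.18 at an unadjusted p under 0.05 when the length trend was removed. Among results called under no setting, 72 values had the opposite sign. In gtf2i/gtf2i against wt 1 member was called; DESeq2 gave 3, a fit of the compared groups alone 0, one of all 18 libraries 2, the replicate block 4, removal of the length trend 2, block and length together 6, and leaving out single libraries 0 to 6. Over all genes the 110 calls became 310, 31, 262, 624, 293 and 845 in the same order, and 28 to 1159. Against gtf2i 3 members were called, and 5 with the replicate block, 5 without the length trend, 6 with both, and 0 to 6 leaving out libraries (365 genes, then 892, 513, 1097, and 67 to 1376). In the difference between sets it was 0, then 1 with the replicate block and 0 to 1 leaving out libraries (20 genes, 84 with DESeq2, 83 with the block, 33 without the length trend, 77 with both, and 12 to 723). Between the wt groups it was 0, 1 with DESeq2 and 0 to 3 (0 genes, 1354 with DESeq2, and 0 to 2076). No member with an adjusted p was called in the ird1 set or for gtf2i against wt under any alternative, the block included; over all genes DESeq2 called 6 for gtf2i against wt (edgeR 1), 3 for ird1/ird1 against wt (1), 1 for ird1 against wt (0) and 1 for ird1/ird1 against ird1 (0). The cause of these shifts was not tested. Without division by length 8 members changed rank; in gtf2i and in gtf2i/gtf2i 4 did. Depth limits Caln1 most, with 16 counts in its lowest library, and a mean of at least 10 CPM leaves it out.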
